A study of Mus musculus with 2 samples.

Results

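The cells described here are the sinusoidal endothelial cells of a c-Maf knockout mouse liver that fall on either side of a split in Maf transcripts. In the deposited annotation of the knockout library, 336 cells are named S or S2, the names that 2779 control cells carry, and 1594 cells are named KOS_1 or KOS_3, names that only 3 control cells carry. The first set is called Maf-retaining below and the second Maf-lacking. Together they make up 1930 of the 8166 annotated cells of the knockout library and of the 15835 annotated cells of both libraries. Of the Maf-retaining cells, 223 were named S and 113 were named S2. Of the Maf-lacking cells, 1356 were named KOS_1 and 238 were named KOS_3. The control cells, 1320 named S and 1459 named S2, served as the reference for sinusoidal cells of the same names.

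The study sequenced sorted endothelial and blood cells of the mouse liver at postnatal day 15 by droplet single-cell RNA sequencing, with 1 control library and 1 library from c-Maf knockout endothelial cell mice, as the labels name them. Each library pooled 1 male and 1 female mouse, and at which step they were pooled is not given in the labels. The knockout cells of both sides share 1 library, whereas genotype and library cannot be told apart between knockout and control cells. Neither the strain nor the Cre line or other driver of the deletion is given in the sources used here. With 1 library per genotype there is no replicate check and no p-value. Intervals are exact at 95% and cover counting error only. The authors drew their clusters from the same transcripts that are compared here, so differences between the 2 sides are a description.

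Liver sinusoids are the wide, fenestrated capillaries of the liver. Their endothelial cells clear waste from the blood through scavenger receptors and lysosomes, and they send Wnt and other signals to hepatocytes. Most other organs have continuous capillaries, whose endothelial cells carry genes such as Cd34, Ly6c1 and Aplnr. Maf (c-Maf) is a large Maf transcription factor of the basic leucine zipper family, which binds DNA as a dimer through Maf recognition elements.

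Depth differed between the sides. A unique molecular identifier (UMI) marks 1 captured transcript, and the median cell held 5466 UMIs on the Maf-retaining side, 9404 on the Maf-lacking side and 4925 among control S and S2 cells. Within the sides, KO S cells (median 2909) were shallower than KO S2 cells (8000), and KOS_3 cells (3178.5) were shallower than KOS_1 cells (10305). Each cell was therefore thinned at random to 1241 UMIs, the 10th percentile of the cells compared, which kept 281 Maf-retaining, 1584 Maf-lacking and 2373 control cells and left out 55, 10 and 406 shallower cells. Levels below are counts per 1000000 UMIs (CPM) in the sum of the thinned cells. Mitochondrial transcripts took 13.8% of the thinned UMIs in KOS_3 cells and 10.98% in control S cells, against 7.96% in KO S, 6.66% in KOS_1, 6.17% in control S2 and 5.41% in KO S2 cells. The doublet caller marked 1 Maf-retaining, 15 Maf-lacking and 12 control S or S2 cells. The libraries shared 25 cell barcodes, and 1 of the 336 Maf-retaining cells had a barcode that was also a control S or S2 cell.

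Maf-retaining cells held Maf and Dnase1l3 within 1.5-fold of control cells, but not Ly6a. Maf (chr8:115682942-115707794, minus strand, GRCm38) reached 1901 CPM in Maf-retaining cells and 2040.5 in control cells, and 10.2 in Maf-lacking cells. By cluster it was 1607 in KO S and 1551 in control S cells, and 2339 in KO S2 and 2347 in control S2 cells, so S2 cells were above S cells in both libraries. KOS_1 cells had 10.1 (5.88 to 16.2) and KOS_3 cells 10.6 (3 UMIs, 2.19 to 31.0). These lay between the 5.10 of neutrophils (2 UMIs) and the 18.4 of B-lineage cells in the same library, which serve as a background of free RNA. Maf was 182-fold higher in Maf-retaining than in Maf-lacking cells, a log2 ratio of 7.51 (6.91 to 8.27), and its log2 ratio over control cells was -0.10 (-0.22 to 0.01). That value was -0.32 with all UMIs of all cells and 0.02 with control cells weighted to the knockout mix of S and S2. Dnase1l3 (chr14:7964533-7994573, minus strand), a secreted nuclease that degrades DNA in the blood, stood at 1698, 2006.5 and 6.61 CPM in Maf-retaining, control and Maf-lacking cells. Its log2 ratio over Maf-lacking cells was 7.95 (7.22 to 8.92) and over control cells -0.24 (-0.37 to -0.12), and KOS_3 cells had 0 Dnase1l3 UMIs, where 3 UMIs would give 10.6 CPM (upper limit of the exact interval 13.0).

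Ly6a did not sit at the control level. Ly6a (chr15:74994877-74998031, minus strand), which encodes the surface protein Sca-1, reached 516 CPM in Maf-retaining cells, 26.1 in control cells and 1982.5 in Maf-lacking cells. Maf-retaining cells were thus 3.83-fold below Maf-lacking cells (log2 -1.94, -2.17 to -1.73) and 19.7-fold above control cells (log2 4.30, 3.91 to 4.71). KO S cells had 585 and KO S2 cells 414, against 24.7 and 27.1 in control S and S2 cells, so the Ly6a level stood above control in both clusters. It was 2134.5 in KOS_1 and 1078 in KOS_3 cells, the log2 ratio of Maf-retaining over KOS_3 cells alone being -1.06. Pcp4l1 (chr1:171173262-171196268, minus strand), which encodes a small Purkinje cell protein 4-like peptide, was seen at 7 UMIs in Maf-retaining, 2 in control and 408 in Maf-lacking cells, or 20.1, 0.68 and 208 CPM. Its log2 ratio was -3.27 (-4.69 to -2.31) over Maf-lacking cells and 4.66 (2.49 to 8.19) over control cells, the last from too few UMIs for a call. A Pcp4l1 UMI was found in 1.78% of Maf-retaining cells and in 2.96% of Kupffer cells of the same library, the macrophages that lie inside the sinusoids (23.9 CPM). The Maf-retaining level of Pcp4l1 was thus no higher than in Kupffer cells, a cell type taken as background, which rested on 4 UMIs. That level was above the 1.67 of B-lineage cells, 2.55 of neutrophils and 2.96 of T cells of the same library (5, 1 and 3 UMIs). The interval over control cells left out equality, but no difference is read from so few UMIs.

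**Figure D1:**
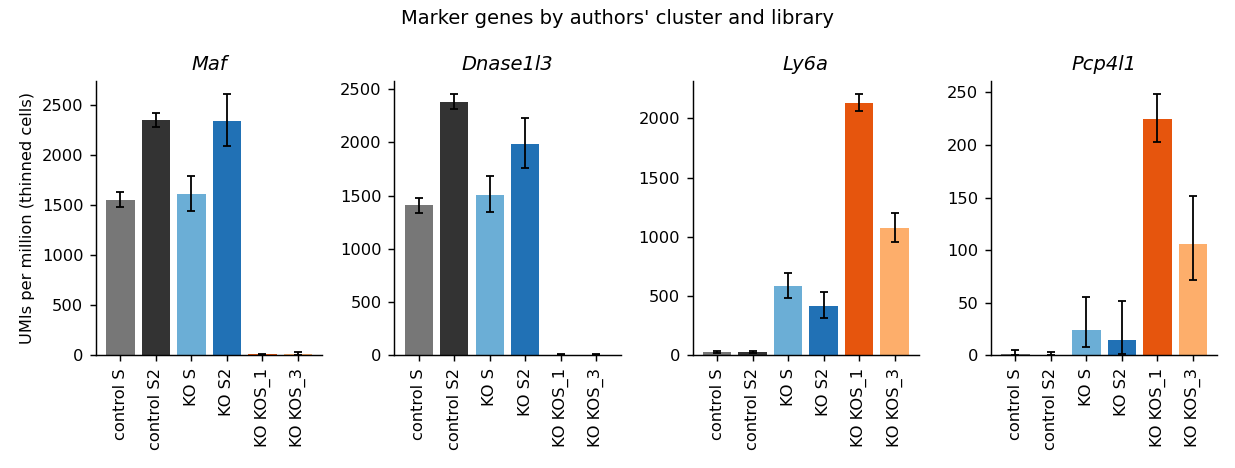
Levels of Maf, Dnase1l3, Ly6a and Pcp4l1 in CPM (vertical axes, starting at 0) in thinned cells of 6 groups: control S and S2, knockout S and S2, and knockout KOS_1 and KOS_3. Bars are summed levels and error bars exact Poisson intervals at 95%. Maf and Dnase1l3 of KO S and S2 cells stand beside those of control S and S2 cells, while Ly6a at 585 and 414 lies between the control bars (24.7 and 27.1) and the KOS_1 and KOS_3 bars (2134.5 and 1078).

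Cells with a Ly6a UMI made up 33.1% (27.6 to 38.9) of Maf-retaining cells, 78.9% of Maf-lacking cells and 2.53% of control S and S2 cells at 1241 UMIs each. Other cells of the knockout library are set beside this share, since free RNA reaches all droplets. How much of their Ly6a was free RNA and how much their own was not tested. At the same depth it was 6.43% in B-lineage cells (median depth before thinning 2990 UMIs) and 3.16% in neutrophils (7653.5), against 5466 in Maf-retaining cells. B-lineage cells of the control library had 7.93%, so the B-lineage share did not stand higher in the knockout library, and control S and S2 cells were below it. In CPM, control B-lineage cells had 97.0 of Ly6a, above the 15.3 of control neutrophils (4 UMIs) and the 26.1 of control S and S2 cells. The B-lineage share is thus no measure of free Ly6a RNA alone. T cells, some of which express Ly6a, had 14.5% in the knockout and 7.07% in the control library. Kupffer cells had 12.6% (7.51 to 19.4, median depth 1989) and 4.10%, and neutrophils of the control library had 1.90%. Unlike the B-lineage share, these shares stood higher in the knockout library, with overlapping intervals for neutrophils. Whether free Ly6a RNA differed between the libraries was not tested. The Maf-retaining interval lay above the share in each of these cell types. In CPM, Ly6a and Pcp4l1 stood at 516 and 20.1 in Maf-retaining cells (180 and 7 UMIs) and at 1982.5 and 208 in Maf-lacking cells (3897 and 408). The 2409 thinned B-lineage cells of the knockout library had 68.9 and 1.67 (206 and 5 UMIs). Without thinning, a Ly6a UMI was found in 168 of 336 Maf-retaining cells, 96.0% of Maf-lacking and 7.09% of control cells. All 113 KO S2 cells then held Maf and Dnase1l3 UMIs, and 62 of them (54.9%) held a Ly6a UMI, against 145 of 1459 (9.94%) control S2 cells.

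The 2 sides also differed in which mouse their typed cells came from. Because each library pooled 1 male and 1 female mouse, a cell with an Xist UMI and none of the Y-linked genes Ddx3y, Uty, Eif2s3y and Kdm5d was counted as female-type, and the reverse as male-type. With all UMIs, 247 Maf-retaining cells were female-type and 0 were male-type, while 2 had both kinds of UMI and 87 had neither. Of those 87, 85 were cells of the shallower cluster KO S. A count of 0 among the 247 typed cells allows a male-type share of up to 1.21% (3 cells), and the exact interval ends at 1.48%. Among Maf-lacking cells, 1070 were female-type and 235 male-type, or 18.0% male-type (16.0 to 20.2), at 18.4% in KOS_1 and 15.3% in KOS_3 cells. Control S and S2 cells held 688 female-type and 827 male-type cells, or 54.6%. Both limits for Maf-retaining cells thus lay below the interval of Maf-lacking cells of the same library. At equal depth the counts were 171 and 0, 874 and 66, and 516 and 301. The male-type share was then 7.02% (5.47 to 8.85) in Maf-lacking and 36.8% in control cells, with an upper limit of 2.13% in Maf-retaining cells. The share of male-type among typed cells thus fell with depth, and it is not a share of mice. The authors' own sex call names 249 Maf-retaining cells female and 87 male, numbers that match the cells with an Xist UMI and those without one. The Y-linked genes summed to 0 CPM in thinned Maf-retaining cells, where 3 UMIs would give 8.60, 39.2 in Maf-lacking and 119 in control cells. Since mouse and side are linked, each comparison was repeated with female-type cells alone. Among these, Ly6a had a log2 ratio of -2.17 over Maf-lacking and 4.05 over control cells.

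**Figure D2:**
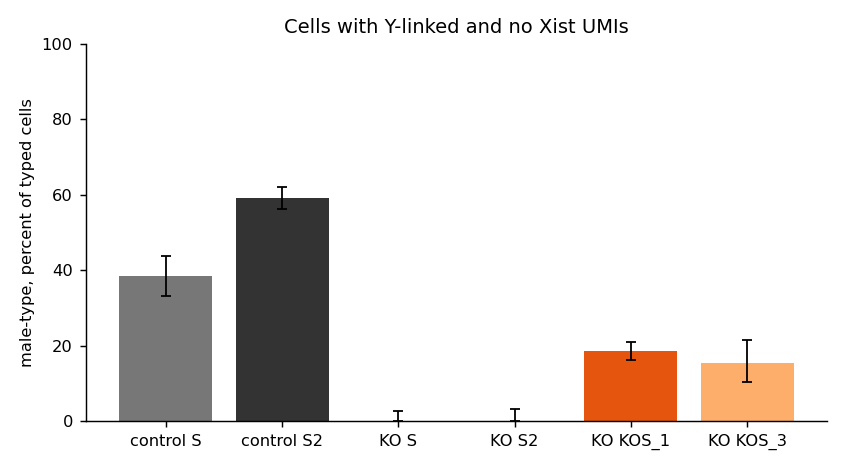
Share of male-type cells in percent of typed cells (vertical axis, 0 to 100) in 6 groups, from all UMIs of each cell. Error bars are exact binomial intervals at 95%, and KO S and KO S2 cells stand at 0 of 136 and 0 of 111 typed cells, while KOS_1 and KOS_3 cells stand at 18.4% and 15.3%.

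A call needed a difference of 1.5-fold or more between the sums of thinned cells, an interval that left out equality, and 50 UMIs or more over the pair of sums. In Maf-retaining over Maf-lacking cells, 647 of 6167 genes were called higher (10.5%) and 414 lower (6.71%), and the median log2 ratio of all genes was 0.07. In KO S and S2 over control S and S2 cells, 189 of 7202 genes were called higher (2.62%) and 227 lower (3.15%). The comparison of control S and S2 cells with Maf-lacking cells, given beside these, called 1293 of 8353 genes higher (15.5%) and 932 lower (11.2%). The 3 comparisons share cells, and the number of cells on each side differs, so the counts are set side by side only. The split of calls between Maf-retaining and Maf-lacking cells depended on scaling. TMM factors gave 504 higher and 589 lower (a median shift of -0.10), and a total without mitochondrial, ribosomal and hemoglobin genes gave 467 and 647 (a shift of -0.13), so that the higher share went from 61.0% to 46.1% and 41.9%. The calls also depended on the Maf-lacking cluster. Against KOS_1 cells alone, 560 of the 647 and 355 of the 414 genes were called again. Against KOS_3 cells alone, 241 and 53 were called again, so most of the lower calls were not seen there. KOS_3 cells were fewer (228 thinned cells against 1356 of KOS_1), and how far that bears on the calls was not tested.

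Calls near the threshold also depended on the random draw. Of the 647 and 414 genes called between the 2 sides, 398 and 205 were called the same way in a second draw of equal depth, and 379 and 170 in both draws and with all UMIs. Of the 189 and 227 genes called against control cells, 48 and 69 were called again in the second draw, and 34 and 53 in both draws and with all UMIs. Genes named below that did not pass all 3 are marked as called in the first draw only or given as values. Counts of called list members are those of the first draw.

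Of the 12 genes highest in Maf-retaining over Maf-lacking cells among those with at least 100 UMIs, Dnase1l3 and Maf came first. They were followed by Tcn2, which carries vitamin B12 in the blood, and Lgmn, a lysosomal cysteine protease. Tcn2 stood at 390 CPM in Maf-retaining, 18.3 in Maf-lacking and 489 in control cells (log2 4.40, 3.87 to 4.98, over Maf-lacking cells), and Lgmn at 685, 46.8 and 873 (3.87, 3.52 to 4.24). Gas6, a ligand of the TAM receptor kinases, had a log2 ratio of 3.83, with 212, 14.8 and 207 CPM. Wnt2, the sinusoidal Wnt ligand for hepatocytes, had 338, 24.4 and 375 (3.78, 3.30 to 4.31). The metallothionein Mt1 had 450 in Maf-retaining, 33.6 in Maf-lacking and 274 in control cells. Its log2 ratio was 3.74 over Maf-lacking cells, and at 0.72 over control cells it was also called higher there. Next came Mylip, a ubiquitin ligase of lipoprotein receptors (3.41), the zinc transporter Slc39a8 (3.41), Ralgapa2, a GTPase activator of Ral (3.28), the transmembrane collagen Col13a1 (206 against 22.4 CPM) and Gatm, the first enzyme of creatine synthesis (3.04). Apart from Mt1, none of these was called against control cells in the first draw. All 10 were called in both draws and with all UMIs.

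The sinusoidal identity genes followed the split. Of 29 members tested, 19 were called higher in Maf-retaining than in Maf-lacking cells and 0 lower, and the median log2 ratio of members was 1.34. Selenop, which exports selenium, was the most abundant at 5520.2 CPM in Maf-retaining, 846 in Maf-lacking and 6996 in control cells (log2 2.71, 2.61 to 2.80). The Fc receptor Fcgr2b, which clears immune complexes, had 1494, 252 and 1506 (2.57), with a log2 ratio over control cells of -0.01 (-0.15 to 0.12). Against control cells 0 of 31 tested members were called higher and 6 lower in the first draw, with a median of -0.20. Of those 6, Stab2, Aass, Cyp4b1 and Ctsl were also called lower in the second draw and with all UMIs. Stab2, the scavenger and hyaluronan receptor of sinusoids, stood at 1024, 212 and 1628 CPM. Stab2 was called higher than in Maf-lacking cells (2.27, 2.07 to 2.48) and lower than in control cells (-0.67, -0.83 to -0.51). The mix of clusters moved this last value to -0.50, and S cells alone gave -0.32, neither past the 1.5-fold limit. KO S2 cells had 1226.5 CPM of Stab2 (1050 to 1424) against 1952.4 (1888.5 to 2018) in control S2 cells, a gap beyond that limit. Aass, an enzyme of lysine breakdown, was likewise called lower than in control cells (63.1 and 110.4 CPM, log2 -0.78), and in Maf-lacking cells it had 8.14.

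Scavenger receptors and lysosomal enzymes gave similar counts. Of 16 scavenger and endocytic receptors tested, 11 were called higher than in Maf-lacking cells and 1 lower, with a median of 1.04, and against control cells 0 were called higher and 2 lower. Dab2, a clathrin adaptor, had 657 CPM in Maf-retaining, 154 in Maf-lacking and 652 in control cells (log2 2.09), the mannose receptor Mrc1 had 1362, 365 and 1543 (1.90), and Stab1 had 766, 374 and 1107 (1.04). The class A scavenger receptor Msr1 had 97.5, 34.1 and 175, and was called against both (1.53 and -0.82). The receptor called lower than in Maf-lacking cells was the fatty acid translocase Cd36 at 510.4 and 794 CPM (-0.63), which was called in the first draw only. Of 18 lysosomal enzymes and proteases, 9 were called higher than in Maf-lacking cells and 0 lower, with a median of 0.74. Cathepsin L (Ctsl) had 1531, 364 and 2301 CPM (2.07). It was called lower than in control cells (-0.59), but with control cells weighted to the knockout mix of S and S2 the value was -0.46, inside the 1.5-fold limit. Cathepsin D (Ctsd) had 783, 190.3 and 872 CPM (2.04). For each receptor and protease named here, Cd36 included (543 CPM in control cells), the log2 difference from control cells was smaller than that from Maf-lacking cells.

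Promoter letters of the sinusoidal identity genes are shown because these genes moved together and Maf proteins are known to bind DNA at sites that contain TGCTGA. The 250 bases before the start site were searched for TGCTGA on either strand in RefSeq promoters (GRCm38.p6). The motif was found in 5 of 23 matched sinusoidal identity genes (21.7%, 7.46 to 43.7), 71 of 515 genes called higher in Maf-retaining cells (13.8%), 35 of 328 called lower (10.7%), 563 of 4957 tested genes (11.4%) and 4275 of all 27025 promoters (15.8%). A match is a description of letters and not a site of binding, and the motif is short. It was in 0 of 9 matched genes among the 12 highest and 0 of 7 among the 12 lowest. The windows below hold 60 bases around the motif in 2 sinusoidal identity genes that were called higher and whose window lies outside annotated exons. They are read 5′ to 3′ on the strand of the gene, with each match of the motif or its reverse complement in capitals. Adam23 (a disintegrin-like adhesion protein, log2 1.35) lies on the plus strand, and its window at chr1:63445725-63445784 holds a pair of matches 139 and 121 bases before its start. Stab1 lies on the minus strand, and its window at chr14:31168652-31168711 holds 1 match 43 bases before its start.
Adam23: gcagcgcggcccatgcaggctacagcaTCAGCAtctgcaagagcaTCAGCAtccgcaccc
Stab1: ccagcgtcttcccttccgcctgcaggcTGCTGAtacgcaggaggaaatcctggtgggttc

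Genes of the central vein side of the sinusoid were also higher in Maf-retaining cells, and genes of the portal side were divided. Of 13 central vein side genes tested, 8 were called higher than in Maf-lacking cells and 2 lower, with a median of 0.70. The thrombin receptor thrombomodulin (Thbd) had 169 CPM in Maf-retaining, 32.6 in Maf-lacking and 128 in control cells (log2 2.38, 1.84 to 2.91). The cadherin Cdh13 had 106, 14.8 and 116 (2.84). Rspo3, which strengthens Wnt signals and marks central vein endothelium, was sparse at 7 UMIs in Maf-retaining cells, or 20.1 CPM, against 6.61 in Maf-lacking and 53.0 in control cells, and was called lower than in control cells (-1.31, -2.74 to -0.32). Of 14 portal side genes, 4 were called higher than in Maf-lacking cells and 6 lower, with a median of -0.42. The Notch ligand Dll4 had 60.2, 115 and 84.2 CPM (-0.91) and the ephrin Efnb2 had 71.7, 116 and 75.4 (-0.67), but neither was called in all 3 ways of summing the cells. Of 6 Wnt ligands and signalling genes tested, 3 were called higher and 0 lower, these being Wnt2, the Wnt exporter Wls (183.5 against 82.4, log2 1.16) and the co-receptor Lrp5 (63.1 against 36.6, 0.81), and 0 of these 3 were called against control cells.

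A pair of retinoid genes was called higher in Maf-retaining cells. Cyp26b1, which breaks down retinoic acid, had 149 CPM in Maf-retaining cells (52 UMIs), 3.56 in Maf-lacking cells (7 UMIs) and 222 in control cells (655 UMIs), a log2 ratio of 5.30 (4.24 to 6.77) over Maf-lacking cells and -0.56 over control cells. The second draw gave 4.30. Dhrs3, a retinal reductase, had 269.6, 46.8 and 319 (2.53, 2.10 to 2.96). Of the 12 lipid and retinoid handling genes 3 were called higher and 1 lower, with a median of 0.12 that was -0.01 with the total without mitochondrial, ribosomal and hemoglobin genes. Angiocrine factors were divided, with 7 of 14 called higher than in Maf-lacking cells, 6 lower and a median of 0.60. Igfbp7, a secreted protein that binds insulin and insulin-like growth factors, had 2934, 1147 and 3980 CPM (1.35), whereas Kitl, the stem cell factor of the blood niche, had 74.6, 123 and 46.5, between control and Maf-lacking cells (-0.69 and, over control cells, 0.70 in the first draw only).

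**Figure D3:**
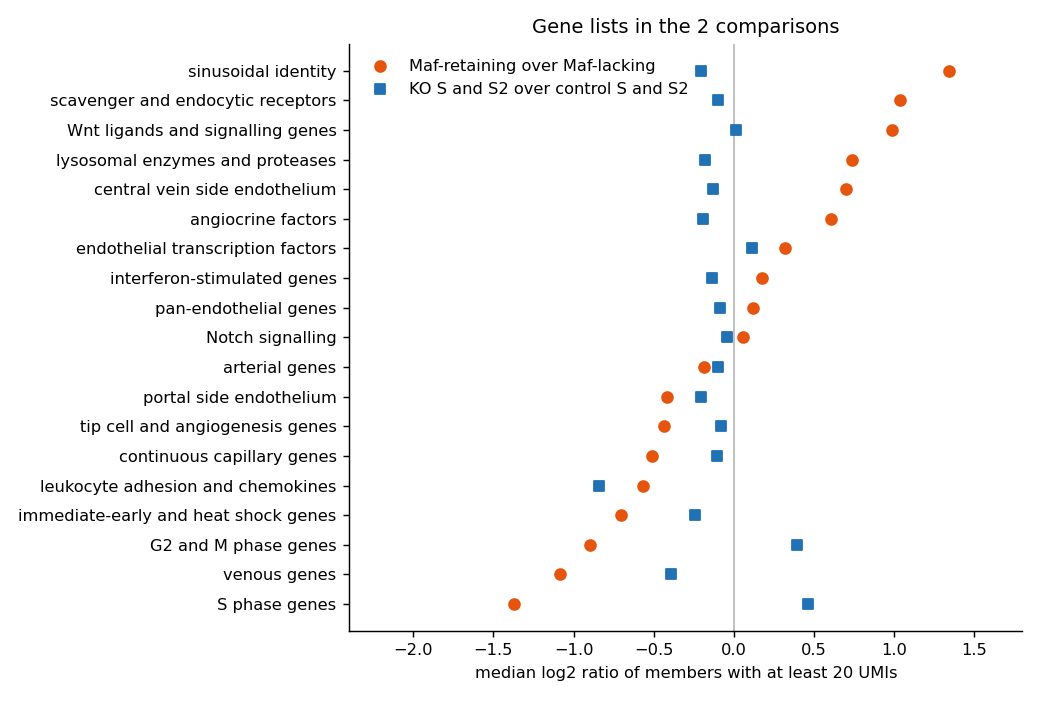
Median log2 ratio of list members with at least 20 UMIs (horizontal axis) for 19 gene lists (vertical axis), as circles for Maf-retaining over Maf-lacking cells and as squares for KO S and S2 over control S and S2 cells. Circles run from 1.34 for sinusoidal identity to -1.37 for S phase genes, and squares run from 0.46 for S phase genes to -0.84 for leukocyte adhesion genes.

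Several continuous capillary genes lay between control and Maf-lacking levels in Maf-retaining cells. Of 22 members tested, 10 were called lower than in Maf-lacking cells and 3 higher, with a median of -0.51. Against KOS_3 cells alone 5 of 18 were called lower and 5 higher, with a median of -0.02. Over all genes of that comparison 265 were called lower and 537 higher, with a median of 0.03. Against control cells 3 of 18 were called higher and 1 lower, with a median of -0.10. Cd34, a sialomucin of capillaries and blood progenitors, had 138 CPM in Maf-retaining cells (48 UMIs), 368 in Maf-lacking cells (723 UMIs) and 16.0 in control cells (47 UMIs). Its log2 ratio was -1.40 over Maf-lacking and 3.11 (2.50 to 3.72) over control cells, and -1.93 and 2.47 in the second draw. Cd34 thus followed Ly6a in being called on both sides. Ly6c1, a relative of Ly6a, had 11, 353 and 3 UMIs in Maf-retaining, Maf-lacking and control cells, or 31.5, 179.6 and 1.02 CPM (-2.45, -3.52 to -1.65, and 4.79, 3.03 to 7.43, over control cells). The apelin receptor Aplnr had 8, 387 and 11 UMIs, or 22.9, 197 and 3.74 CPM (-3.02, -4.32 to -2.11, and 2.64, 1.10 to 4.07). For Ly6c1 and Aplnr the UMIs against control cells were too few for a call, though both intervals left out equality.

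Plvap, which builds the diaphragms of fenestrae and caveolae, lay below both other groups, at 48.8 CPM in Maf-retaining, 146 in control and 266 in Maf-lacking cells. It was called lower on both sides, with log2 ratios of -2.41 (-3.24 to -1.75) and -1.55 (-2.38 to -0.89). The caveolae genes Cav1 and Cavin1 were called lower than in Maf-lacking cells in the first draw (31.5 against 78.9 and 120 against 222 CPM), as was the adhesion molecule Mcam (120 against 238). Control cells had 21.4 CPM of Cav1, 91.0 of Cavin1 and 159 of Mcam, and none of these 3 was called against control cells in that draw. Tcf15, a transcription factor of fatty acid uptake in capillaries, rested on 1 UMI in Maf-retaining, 93 in Maf-lacking and 4 in control cells (log2 over Maf-lacking cells -3.47, -9.36 to -1.53). The tight junction gene Cldn5 had 846, 358 and 783 CPM in Maf-retaining, Maf-lacking and control cells (1.24), the tetraspanin Tspan7 889, 128 and 993 (2.80) and Cd300lg, a lymphocyte-binding glycoprotein, 206 against 124 in Maf-lacking cells (0.74). Those 3 were called higher and stood with the sinusoidal genes.

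**Figure D4:**
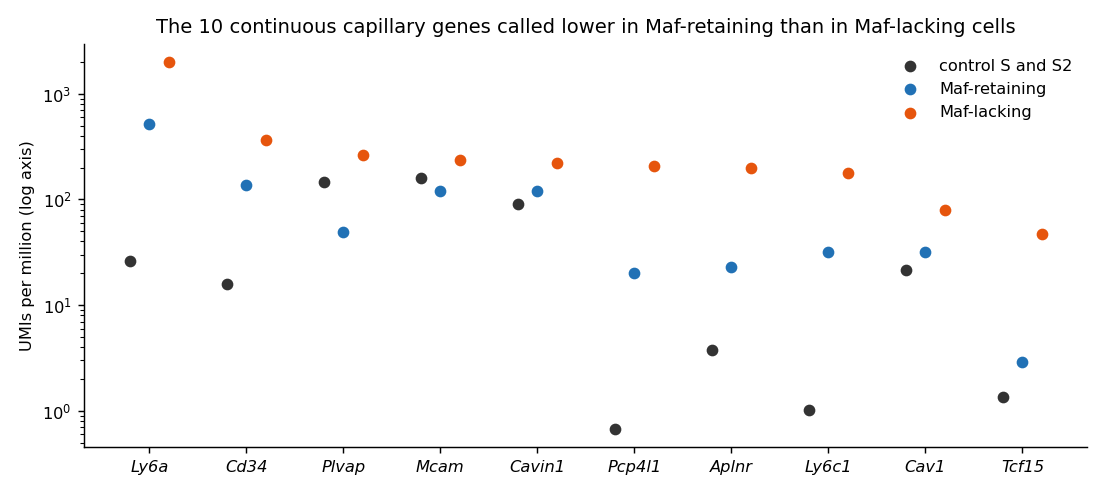
Levels in CPM (vertical log axis) of the 10 continuous capillary genes that were called lower in Maf-retaining than in Maf-lacking cells, with 1 point each for control S and S2, Maf-retaining and Maf-lacking cells. Maf-retaining cells lie between the other groups for Ly6a (516 between 26.1 and 1982.5), Cd34 (138 between 16.0 and 368) and 6 others, and below both for Plvap (48.8) and Mcam (120), while the Tcf15 point of Maf-retaining cells is 1 UMI and the Pcp4l1 points of Maf-retaining and control cells are 7 and 2 UMIs.

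Ly6a was not confined to Maf-retaining cells without Maf or Dnase1l3 UMIs. Of the 281 thinned cells, 192 (68.3%) held UMIs of both genes, and in these Ly6a reached 457 CPM (376 to 552), with a UMI in 55 cells (28.6%). The 1826 control cells with both genes had 24.3. Cd34 stood at 101 and 17.7 in the same cells. Among the 232 Maf-retaining cells with a Dnase1l3 UMI, 70 (30.2%) had a Ly6a UMI. A smaller set of 22 cells (7.83%) held neither Maf nor Dnase1l3 UMIs. These cells had 952 CPM of Ly6a (622 to 1395), between the 516 of all Maf-retaining cells and the 1982.5 of Maf-lacking cells. Mest was 1099 (741 to 1569), close to the Maf-lacking level of 1236. Selenop was 2161, between 5520 in all Maf-retaining cells and 846 in Maf-lacking cells. On the other side, 29 Maf-lacking cells (1.83%) held a UMI of either gene.

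Within the Maf-retaining side, Ly6a was lower in cells with more Maf UMIs. The 62 cells with 0 Maf UMIs had 767 CPM of Ly6a (584 to 989), the 55 cells with 1 had 703, the 46 with 2 had 490.5 and the 118 with 3 or more had 307 (224 to 411), so that the intervals of the first and last bins did not overlap. Control cells with the same Maf UMIs had 37.5, 30.9, 32.6 and 17.5. The cells with 3 or more Maf UMIs on the knockout side therefore still stood above control cells with 0. Within KO S cells Ly6a was 720 (519 to 973), 785, 537 and 360 (233 to 531) across the 4 bins. The steady order was thus not repeated there, and the intervals of the first and last bins overlapped. Among KO S2 cells, 62 had 3 or more Maf UMIs and a Ly6a level of 260, while the lower bins held fewer than 20 cells each and were not read. Dnase1l3 went the other way, at 1287, 1656, 1594 and 1973.5 across the 4 bins, as it did in control cells at 1703, 1766, 1915 and 2246. The summed sinusoidal identity genes without Maf had 21159 and 34212 in the first and last bins. Stab2 had no steady order in Maf-retaining cells (845, 1026, 806 and 1202), and each value was below the control value for the same bin (1363, 1445, 1560 and 1820).

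**Figure D5:**
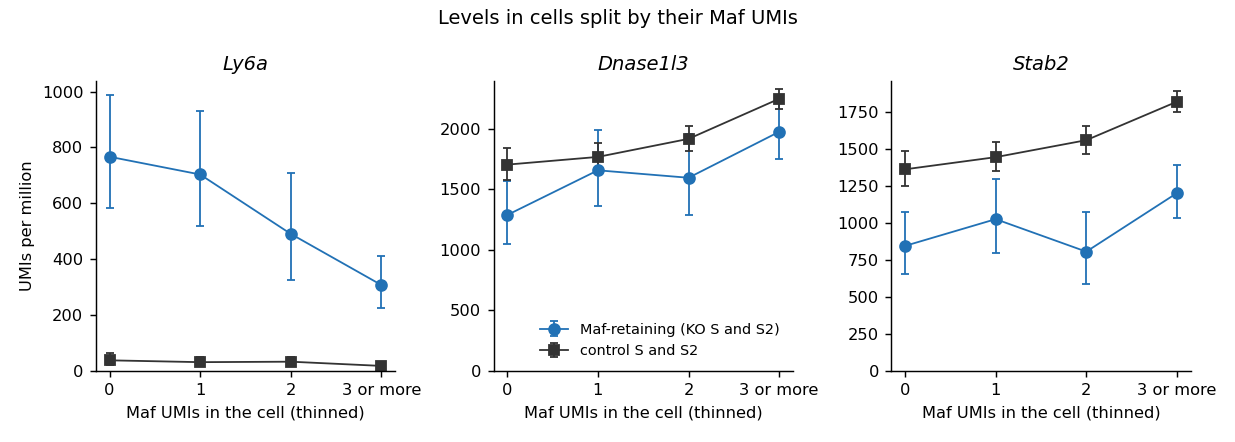
Levels of Ly6a, Dnase1l3 and Stab2 in CPM (vertical axes) in thinned cells split by their Maf UMIs (horizontal axes), for Maf-retaining cells (circles) and control S and S2 cells (squares), with exact Poisson intervals at 95%. Ly6a of Maf-retaining cells is 767 in the first bin and 307 in the last, against 37.5 and 17.5 in control cells.

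The same Maf-retaining cells were also split by Ly6a UMIs. For Maf and Ly6a this reads the same link from the other gene, so it is no separate result, and it was not split by cluster. The 188 cells with 0 Ly6a UMIs had 2207 CPM of Maf, the 58 with 1 had 1459 and the 24 with 3 or more had 1041, while the 11 cells with 2 were too few to read. Dnase1l3 was 1804.5, 1431 and 1645 in those cells. Every one of these values was above the Maf-lacking sums of 10.2 and 6.61, so cells with 3 or more Ly6a UMIs still held Maf and Dnase1l3. Summed sinusoidal identity genes stood at 34469, 25272 and 22965.

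The remaining genes lowest in Maf-retaining over Maf-lacking cells were few in transcripts. Hspb1, a small heat shock protein, had 3 UMIs against 217 (8.60 and 110 CPM, log2 -3.46, -5.97 to -2.12) and 13 in control cells. Pdlim3, a PDZ and LIM domain protein of the actin cytoskeleton, had 6, 273 and 0 UMIs in Maf-retaining, Maf-lacking and control cells. It was at least 136-fold higher in Maf-lacking than in control cells, with 3 UMIs in the control sum as the floor. The 6 UMIs of Maf-retaining cells, 17.2 CPM (6.31 to 37.4), were too few for a call against control cells. The taurine transporter Slc6a6 had 34.4 and 234 CPM (-2.71, -3.73 to -1.95), with 17.0 in control cells. The chromatin factor Atad2 (3 UMIs), the transcription factor Mecom (4), the imprinted gene Peg10 (5), the secreted glycoprotein Lrg1 (3) and the replication helicase subunit Mcm2 (3) completed the 12 with Pcp4l1, Aplnr, Ly6c1 and Plvap. The second draw moved Atad2 from -2.67 to -1.21, Mecom from -2.61 to -1.09, Mcm2 from -2.39 to -1.04, Peg10 from -2.53 to -1.64 and Lrg1 from -2.41 to -1.88, while Slc6a6 went to -2.09, Pdlim3 to -3.47 and Hspb1 to -3.94.

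Cell cycle genes were lower in Maf-retaining than in Maf-lacking cells. Of 16 S phase genes tested, 10 were called lower and 0 higher, with a median of -1.37, or -1.29 with 3 members at 0 set to their bound. Without cells with a cycling marker that median was -0.57. Of 5 G2 and M phase genes, 4 were called lower and 0 higher. Against control cells 3 of 7 S phase genes and 2 of 2 G2 and M phase genes were called higher in the first draw. Of the S phase genes only Mcm6 was also called in the second draw and with all UMIs, as were Hmgb2 and Cenpa of the others. Hmgb2, a chromatin protein of dividing cells, had 218 CPM in Maf-retaining, 449 in Maf-lacking and 126 in control cells (log2 -1.03, -1.40 to -0.70, and 0.80, 0.42 to 1.15), again in between. The replication helicase subunit Mcm6 had 37.3, 57.5 and 15.6 and was called against control cells only (1.29, 0.24 to 2.17). Uhrf1, a methylation maintenance factor, and Top2a, a topoisomerase of mitosis, rested on 1 and 3 UMIs in Maf-retaining cells. A UMI of Mki67 or Top2a was present in 6 of 281 Maf-retaining cells (2.14%), 80 of 1584 Maf-lacking cells (5.05%) and 33 of 2373 control cells (1.39%). By cluster that share was 6.14% in KOS_3, 4.87% in KOS_1, 3.54% in KO S2 and 1.19% in KO S cells. Few S phase genes could be compared with KOS_3 cells alone, where 1 was tested and not called. The median there was 0.17 over the 6 members that reached 20 UMIs. Mcm2, Clspn and Uhrf1 stood at 56.5, 38.9 and 35.3 CPM in KOS_3 cells and at 8.60, 0 and 2.87 in Maf-retaining cells. Pcna, the sliding clamp of replication, and Slbp, a histone mRNA binding protein, stood at 60.1 and 45.9 in KOS_3 and at 74.6 and 80.3 in Maf-retaining cells, so the members were divided (Pcna and Slbp were chosen after their values were seen).

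In all, 9 genes were called lower than in Maf-lacking and higher than in control cells in both draws and with all UMIs. They were Ly6a, Cd34, Hmgb2, Mest, Pcdh17, Tmsb10, Ckb, Flrt2 and D10Wsu102e, the last 5 being named after their values were seen. The protocadherin Pcdh17 had 794 CPM in Maf-retaining, 1327 in Maf-lacking and 466 in control cells, and Tmsb10, an actin-binding thymosin, 602, 1013 and 377. Mest, an imprinted gene of growing tissues, had 465 CPM in Maf-retaining, 1236 in Maf-lacking and 209 in control cells, with log2 ratios of -1.41 (-1.65 to -1.18) and 1.16 (0.89 to 1.41). By cluster it was 456 in KO S, 478 in KO S2, 1225 in KOS_1, 1297 in KOS_3, 201 in control S and 214 in control S2 cells, so both knockout S clusters stood above their control namesakes. In female-type cells alone the log2 ratio over control cells was 0.73. Grb10, another imprinted gene, which restrains growth factor receptors, was called higher than in Maf-lacking cells (215 against 88.0, log2 1.29) and had 154.5 in control cells. Of the 9 imprinted and fetal growth genes tested, 2 were called higher and 2 lower than in Maf-lacking cells.

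Venous genes were called in both directions. Of 14 venous genes tested, 7 were called lower than in Maf-lacking cells and 3 higher, with a median of -1.09 that was -0.46 in the second draw. The prostaglandin transporter Slco2a1 was among those higher (571, 69.7 and 598 CPM, log2 3.03, 2.71 to 3.36), and the von Willebrand factor gene Vwf (5 UMIs, -2.21) and the adhesion receptor Vcam1 (4 UMIs, -2.32) were among those lower. P-selectin (Selp) rested on 1 UMI in Maf-retaining cells and 98 in control cells. Of 8 arterial genes 1 was called higher and 3 lower, and of 20 pan-endothelial genes 3 were called higher and 1 lower, with a median of 0.12 that was -0.01 with the total without mitochondrial, ribosomal and hemoglobin genes. Among 33 endothelial transcription factors, 5 were called higher and 3 lower, and 0 of 35 were called against control cells. Of 10 Maf factors and partners, Maf itself included, 3 were called higher and 4 lower than in Maf-lacking cells, the small Maf gene Mafg being among the higher (123, 37.1 and 132 CPM, log2 1.74, 1.15 to 2.29). Tfec, a relative of the lysosomal regulator Tfeb, had 60.2, 20.3 and 49.2 (1.58, 0.73 to 2.36).

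Immediate-early and heat shock genes, which respond to cell isolation as well as to signals, differed by cluster. Of 22 tested, 12 were called lower in Maf-retaining than in Maf-lacking cells and 1 higher, with a median of -0.70. Against KOS_3 cells alone 8 of 13 were called higher and 1 lower, with a median of 1.16 over the 16 members that reached 20 UMIs. Over all genes of that comparison 537 were called higher and 265 lower, with a median of 0.03. Fos had 354 CPM in control S2, 295 in KOS_1, 107 in KO S2, 105 in control S, 86.3 in KO S and 81.3 in KOS_3 cells, so the 2 deep clusters KOS_1 and control S2 were high and KO S2, also deep, was not. The heat shock gene Hspa1a had 164, 118, 42.8, 38.8, 19.2 and 24.7 in the same order. Over control cells Fos had a log2 ratio of -1.43 (-2.00 to -0.94) and Hspa1a -1.95 (-3.09 to -1.12). The chemokine Cxcl10 (37.3, 85.0 and 116 CPM, -1.14 and -1.58) was called lower on both sides as well, though against KOS_3 cells alone its log2 ratio was 1.65. Cxcl9 rested on 1 UMI. Of 13 leukocyte adhesion and chemokine genes, 5 were called lower than in control cells and 0 higher, with a median of -0.84. How handling of the 2 libraries bears on these genes was not tested.

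In the direct comparison of KO S and S2 with control S and S2 cells, the calls also depended on the mouse. With female-type cells alone (171 and 516 cells), 28 of the 189 genes called higher and 66 of the 227 called lower were called again. Few genes passed in both draws and with all UMIs. Besides Ly6a, Cd34, Mt1, Mest, Hmgb2 and Mcm6, those named by the rule included Tiam1, an activator of Rac (106, 139 and 46.2 CPM in Maf-retaining, Maf-lacking and control cells, log2 1.21, 0.63 to 1.73), the intermediate filament gene Nes (158, 150.1 and 74.0, log2 1.10, 0.64 to 1.52) and the chromatin protein Hmga2 (51.6, 67.1 and 21.7, log2 1.28, 0.41 to 2.02). Their Maf-retaining levels were not called against Maf-lacking cells. The laminin receptor Itga6 had 146, 274 and 62.5, but its log2 ratio over control cells went from 1.24 to 0.52 in the second draw. On the lower side, the calcium channel gene Cacna1a had 0 UMIs in Maf-retaining and 124 in control cells, at least 4.89-fold lower with 3 UMIs as the floor, and 20 UMIs in Maf-lacking cells. The corepressor Tle1 had 20.1 and 71.6 CPM (-1.74, and -0.68 in the second draw), and the adhesion molecule Jam2 160.6 and 243 (-0.59, or -0.46 and not called with control cells weighted to the knockout mix). Smpdl3a, an acid sphingomyelinase-like phosphodiesterase, was among the 8 lowest at -2.50 but was -0.78 in the second draw and was not called there.

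Transcripts of other cells were measured in the same sums. Kupffer cell genes summed to 379 CPM in Maf-retaining, 96.1 in Maf-lacking and 555 in control cells, hepatocyte genes to 298, 113 and 310, and erythroid genes to 384, 108 and 422. Together the lists of other cells took 0.27%, 0.13% and 0.30% of UMIs. The complement gene C1qb, a Kupffer marker, had 71.7, 2.03 and 169, and it was called lower than in control cells. Alb stood at 40.1, 10.2 and 43.1 and Col1a1 at 0 in both knockout groups. Without the 10% of cells richest in these transcripts, 625 genes were called higher and 401 lower in Maf-retaining over Maf-lacking cells, of which 556 and 341 had been called before. Of all UMIs, 17.4% came from ribosomal protein genes in Maf-retaining cells, 23.2% in Maf-lacking and 14.97% in control cells. Mitochondrial transcripts took 6.94%, 7.68% and 8.02% of the thinned UMIs, and 0 of 13 mitochondrial genes were called between the 2 sides. Against KOS_3 cells alone all 13 were called lower, with a median of -0.96, while the median of all genes there was 0.03.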

How the data were processed

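The authors deposited raw counts of UMIs for 32285 genes in 9038 control and 9058 knockout barcodes, with an annotation of 15835 cells that gives 23 cluster names, UMI counts, the percent of mitochondrial UMIs and a sex call, as deposited. The libraries held 54143192 and 60281713 UMIs. The submitters' processing notes name the build mm10 and the tools Seurat 3.2.3, Cell Ranger 4.0.0 and FastQC 0.11.3, with no roles. Clusters came from resolution 0.5, per the file headers. Gene positions were taken from GENCODE M21 and promoter letters from RefSeq.

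Cells were thinned without replacement, summed per group with Python 3.11.15, numpy 2.4.6, scipy 1.17.1 and pandas 2.3.3, and compared with exact conditional binomial intervals. Log2 ratios had 0.5 UMI added, and list medians took members with at least 20 UMIs. Doublets were marked with Scrublet in scanpy 1.11.5. The automatic cut marked 0.013% of control cells and so did not work there, and the knockout score cut of 0.273 was used for both libraries, which marked 1.98% and 1.81%. TMM factors came from edgeR 4.0.16 in R 4.3.3 and served as an alternative scaling of the summed counts only. The scripts were tested on simulated data.

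The members, the 34 gene lists (604 symbols, 6 of them not matched in the table) and the tests were chosen with earlier results of these data known. Named genes were the 4 markers, the 12 highest and 12 lowest genes called between the 2 sides and the 8 highest and 8 lowest called against control cells (at least 100 UMIs each), and up to 3 called members of each list in each direction, of which a part is named. Predicted, mitochondrial, ribosomal, hemoglobin, Xist and Y-linked genes were left out of that rule. Cav1, Cavin1, Mcam, Stab1, Mrc1, Alb and Col1a1 were added after their values were seen. In all, 21 alternatives were listed. Shares have exact Clopper-Pearson intervals.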

Additional observations from a re-analysis of the deposited data

How the results depend on the processing

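Maf-retaining cells rest on 281 thinned cells of 1 library, so genes under about 100 UMIs there were weakly measured, and calls against control cells changed most between draws. Of 1525 gene ratios recomputed, 1401 stayed inside the counting interval of the main value, as did 18 of 20 shares, and 965 of 1020 list medians moved by less than 1.5-fold. No paired analysis was possible because there is 1 library per genotype. The run with male-type cells alone was not possible, as 0 Maf-retaining cells were male-type.

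With all UMIs and no thinning, 1336 and 1092 genes were called higher and lower in Maf-retaining over Maf-lacking cells (647 and 414 reported) and 383 and 391 over control cells (189 and 227 reported). Maf over control cells was then -0.32, the female-type share of typed Maf-lacking cells 82.0% in place of 93.0%, and the lymphatic median -0.11. Thinning to the 25th percentile gave 1100 and 652 calls between the sides, Maf at -0.24 over control cells and a share of 88.9%. With each cell weighted equally Maf was -0.24, and with control cells weighted to the knockout mix 0.024. The total without mitochondrial, ribosomal and hemoglobin genes gave 647 lower calls between the sides. Without a minimum of UMIs 313 genes were called higher over control cells. At 2-fold the calls were 332 and 254 between the sides, and 87 and 123 over control cells.

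S cells alone gave 96 lower calls over control cells and Maf at 0.053. S2 cells alone gave 146 lower calls there, and an erythroid median of -1.01 between the sides. Against KOS_3 cells alone 537 genes were called higher and 265 lower. These values changed sign there: the S phase median (0.17, over the 6 members that reached 20 UMIs), the immediate-early and heat shock median (1.16, over 16 members), the stellate median (-0.10, 1 member), Fos (0.21), Hspa1a (0.18) and Cxcl10 (1.65). KOS_3 cells were shallower, and 13.8% of their UMIs were mitochondrial. Female-type cells alone gave 257 lower calls between the sides and 93 higher over control cells. Of the 189 and 227 genes called over control cells, 28 and 66 were called again there. Without cells with a cycling marker 259 were called lower between the sides and the S phase median was -0.57. Top2a was then 1.99, since Top2a is itself such a marker. Apart from the smaller number of cells in the cluster and mouse subsets, the causes were not tested.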

Other observations

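Ribosomal protein genes differed by cluster within each side. They took 19.2% of UMIs in KO S cells, 14.7% in KO S2, 24.3% in KOS_1 and 16.1% in KOS_3 cells, against 18.6% in control S and 12.7% in control S2 cells. Srm, Npm1, Fbl and Dkc1, which act in polyamine synthesis, nucleolar assembly, ribosomal RNA methylation and pseudouridylation, were also among the 170 genes called lower in Maf-retaining than in Maf-lacking cells in both draws and with all UMIs. They were chosen after their values were seen.

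Maf transcripts were also looked for in the other knockout endothelial clusters. Among 394 thinned cells of the cluster C-EC, 13 held a Maf UMI, of which 7 were female-type and 0 male-type. Those 13 cells had 1178 CPM of Dnase1l3 and 309.9 of Ly6a, against 23.3 and 1550.3 in the C-EC cells without a Maf UMI. A Maf UMI was found in 3 of 135 cells of the cluster PV and in 5 of 330 cells of KOS_2. B-lineage cells of the same library had a Maf UMI in 2.03%. Bins of 13, 3 and 5 cells are too small to read further.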
